A study of Homo sapiens with 43 samples.

Results

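The regions described here are stretches of gene bodies at which RNA polymerase II phosphorylated on serine 2 of its C-terminal repeats (Ser2P) gave a peak in both control lists of SUDHL5 cells and in none of the 4 lists from cells treated with CDK-TCIP1. Peaks of the 6 Ser2P lists on chromosomes 1 to 22 and X were merged where they overlapped by at least 1 bp, which gave 38571 regions. Of these, 21373 lay inside a protein-coding gene and over 1 kb from both of its ends. The rule kept 1071 of them, which is 5.01% of all gene-body regions and 27% of the 3969 gene-body regions with a peak in both DMSO lists. They are called lost regions below, and lay in 678 genes, 36.9% of the 1836 genes with a gene-body region in both DMSO lists. Another 741 regions had a peak in all 6 lists and are called kept, and 2157 had a peak in both DMSO lists and in 1 to 3 treated lists and are called partly kept. The members were chosen by presence or absence of Ser2P peaks, so every Ser2P value below is a description without a test.

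SUDHL5 and KARPAS422 are established diffuse large B-cell lymphoma lines, and CDK-TCIP1 joins a ligand of the kinase CDK9 to a ligand of the repressor BCL6 in a single molecule. The treated groups received 30 nM CDK-TCIP1 for 2 h or 4 h in a final 0.1% DMSO, and the control groups received 0.1% DMSO. Chromatin immunoprecipitation with sequencing gave 2 Ser2P and 2 Ser5P lists (polymerase phosphorylated on serine 5) in each of CDK-TCIP1 2 h, CDK-TCIP1 4 h and DMSO 4 h, and 3 lists of total polymerase (Pol II) in each, all in SUDHL5. CDK9 was mapped after 2 h of CDK-TCIP1 or of DMSO, with 2 lists per condition, using antibodies ab239364 and CST2316S in SUDHL5 and CST2316S in KARPAS422. The 2 h and 4 h polymerase comparisons share the DMSO 4 h lists, so the 2 h samples differ from their controls in time as well. Nothing in the labels says that lists of a group came from separate cultures, so a p-value here measures the spread between these lists, which may be technical.

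During transcription, the C-terminal repeats of polymerase are phosphorylated on serine 5 near the gene start. Serine 2 phosphorylation, to which the kinase CDK9 contributes, accumulates along the gene body and is highest towards the gene end. Ser2P inside a gene is therefore commonly read as a mark of elongating polymerase. In germinal-centre B cells, BCL6 represses cell-cycle arrest and cell-death genes, while factors such as PAX5 and BACH2 maintain the B-cell programme.

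Promoters of 3 genes are shown first because in PAX5, BLNK and BACH2 every gene-body region with Ser2P in both DMSO lists was lost, while a Ser5P peak lay over the promoter in 4 of 4 treated lists and 2 of 2 DMSO lists. Treated Ser2P peaks inside these genes lay in regions outside this count. It leaves out regions that reach within 1 kb of a gene end or lack a peak in a DMSO list. Each sequence runs 5′ to 3′ on the gene's strand, from 250 bases before to 50 bases after the RefSeq gene start (GRCh38.p14). PAX5 is at chr9:37034219-37034518, BLNK at chr10:96271520-96271819 and BACH2 at chr6:90296794-90297093, all on the minus strand. Capitals mark the letters TATAAA, searched on both strands, which 9.63% of the 15830 promoters in the table hold. PAX5 held 1 match, and these letters were not in the BLNK and BACH2 windows. The motif TTCNNNGAA, also searched on both strands and held by 6.98% of promoters, was in none of the 3 windows.
PAX5: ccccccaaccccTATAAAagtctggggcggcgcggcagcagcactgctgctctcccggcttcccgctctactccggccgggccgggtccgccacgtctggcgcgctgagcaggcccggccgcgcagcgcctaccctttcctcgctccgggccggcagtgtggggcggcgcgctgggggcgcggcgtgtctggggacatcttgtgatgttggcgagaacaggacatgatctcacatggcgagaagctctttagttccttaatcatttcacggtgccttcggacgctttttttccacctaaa
BLNK: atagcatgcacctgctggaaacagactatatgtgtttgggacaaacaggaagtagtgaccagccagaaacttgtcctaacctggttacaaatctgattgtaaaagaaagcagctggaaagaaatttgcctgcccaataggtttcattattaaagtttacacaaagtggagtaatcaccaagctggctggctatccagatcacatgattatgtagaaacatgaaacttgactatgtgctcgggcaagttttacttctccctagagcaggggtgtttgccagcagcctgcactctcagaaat
BACH2: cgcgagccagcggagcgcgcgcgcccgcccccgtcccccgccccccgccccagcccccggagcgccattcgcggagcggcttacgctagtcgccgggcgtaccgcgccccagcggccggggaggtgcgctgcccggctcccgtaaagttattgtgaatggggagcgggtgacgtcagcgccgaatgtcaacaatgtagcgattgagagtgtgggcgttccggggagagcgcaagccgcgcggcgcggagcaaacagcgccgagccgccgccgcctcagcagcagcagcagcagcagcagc

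The Ser2P lists differed in length. CDK-TCIP1 gave 6519 and 16170 peaks at 2 h and 16323 and 13657 peaks at 4 h, against 28951 and 16593 peaks in DMSO. The depth behind each list is unknown, and its number of peaks is the total used here. The B-cell identity of the cells showed in Ser2P, since 10 of 10 B-cell marker genes held a peak in both DMSO lists, against 2 of 10 T-cell and 1 of 10 myeloid marker genes. In bulk chromatin, fewer cells with polymerase at a site and less polymerase per cell cannot be told apart.

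Lost regions were among the weaker Ser2P peaks of DMSO cells. Their median fold enrichment, the peak caller's value as the authors deposited it, was 4.82 in DMSO replicate 1 and 4.00 in replicate 2, against 8.38 and 6.05 at kept regions. The median merged width was 692 bp for lost regions and 2182 bp for kept regions. When the 3969 regions were ranked by q in the DMSO lists and cut into 4 groups of equal size, 4.52% of the strongest group, 18.7% of the next, 33.4% of the next and 51.4% of the weakest were lost. The loss thus covered more of the weak than of the strong regions, and the part that a detection limit has in it was not tested. Of the lost regions, 311 (29.0%) had a treated Ser2P peak within 1 kb and 848 (79.2%) within 10 kb, with a median distance of 2.34 kb. The opposite pattern, a peak in all 4 treated and in neither DMSO list, was found at 10 gene-body regions, 0.0468% of all. It asks for a peak in the shortest list and for none in the longest, and the part of list length was not tested. Without CDK-TCIP1 2 h replicate 1 it was found at 108 regions, beside 1103 lost. With equal numbers of top peaks per list it was found at 33, beside 192 lost. Leaving out a DMSO list asks for a peak in 1 control list only, and gave 3544 lost regions without replicate 1 and 9529 without replicate 2. Raising the peak threshold to −log10 q of 5 gave 353, and equal numbers of top peaks per list gave 192. Outside the position rule, 553 of 6343 regions in both DMSO lists were lost (8.72%). Of the regions just inside the position limit, the nearest lay 1015 and 1020 bp from a gene end, and of the 114 inside a gene but within the limit, the farthest lay 977 and 990 bp away.

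Some genes held several lost regions. In 217 of the 678 genes there were 2 or more lost regions, and in 30 genes 5 or more. All 3969 regions with Ser2P in both DMSO lists lay in 1836 genes, and the spread of lost regions over genes was not compared with theirs. All regions that had Ser2P in both DMSO lists were lost in 298 of the 678 genes, and 51 of those genes had 2 or more such regions. A Ser2P peak remained somewhere in the gene in every treated list for 390 genes (57.5%), and 30 genes (4.42%) had none in any treated list. By chromosome, the share of regions lost ranged between 14.9% (X) and 37.7% (chromosome 10), and chromosome 19 held the most, 98 of 464. Another lost region lay within 10 kb for 451 (42.1%), a share that was not set against the spacing of kept regions. Lost regions held by 1 gene numbered 1043, and 3 regions of the protocadherin gamma cluster on chromosome 5 are shared by up to 22 overlapping genes, which enter the gene count.

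**Figure D1:**
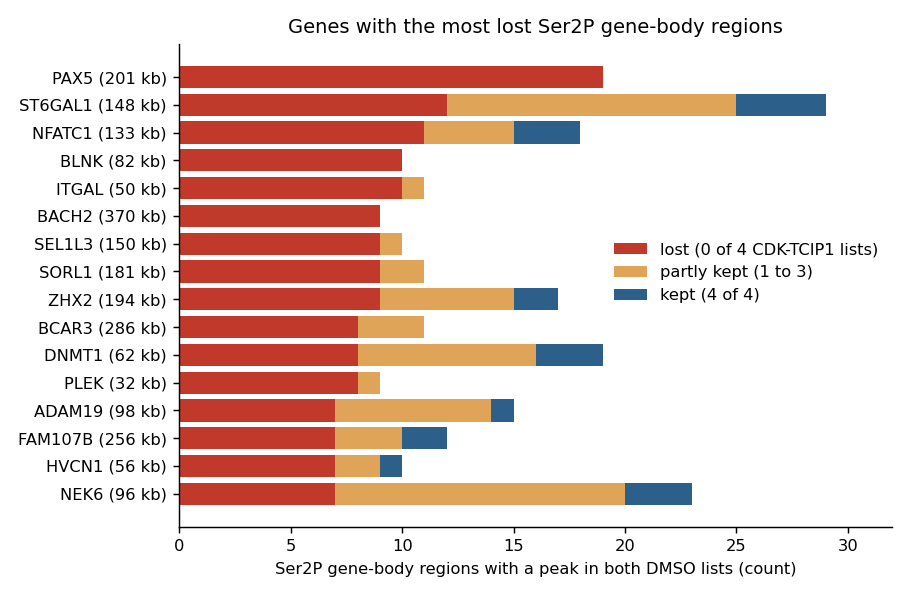
Bars count, for the 16 genes with the most lost regions, the Ser2P gene-body regions with a peak in both DMSO lists (x axis), split by the number of CDK-TCIP1 lists that also held them; gene length is in parentheses. PAX5, BLNK and BACH2 consist of lost regions only (19, 10 and 9), whereas ST6GAL1 and DNMT1 also hold kept regions. Merged regions that reach within 1 kb of a gene end are not counted, even where treated lists hold Ser2P there.

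PAX5, the transcription factor that maintains B-cell identity, held the most lost regions, 19 of 19, along its 201 kb on chromosome 9 (36833269 to 37034268). Over 1 kb from both gene ends the treated lists still held 6 and 5 Ser2P peaks at 2 h and 1 and 3 at 4 h, against 71 and 31 in DMSO. Those treated peaks lay in merged regions outside the 19. Ser2P peaks covered 4.02 and 10.4 kb of the gene at 2 h and 11.5 and 8.16 kb at 4 h of CDK-TCIP1, against 54.8 and 26.8 kb in DMSO. Between 10 and 190 kb from the gene start, 1 and 2 Ser2P peaks were listed at 2 h and 0 and 0 at 4 h, against 67 and 25 in DMSO. A further Ser2P peak about 198 kb from the start, over 1 kb inside the gene end, was listed in 3 of 4 treated lists (not in CDK-TCIP1 2 h replicate 1) and lay within wider peaks of both DMSO lists. Of the peaks overlapping the first 10 kb, the strongest in each list had a fold of 11.6, 8.85, 7.28 and 10.5 in the treated lists and of 12.4 and 8.61 in DMSO. The promoter-proximal block was thus present in every list, and between 10 and 190 kb nearly all Ser2P peaks were in the DMSO lists. Ser5P, which the rule did not use, gave 3, 3, 2 and 1 peaks between 10 and 190 kb in the treated lists, against 24 and 6 in DMSO. A peak at the gene end was listed in 0 of 4 treated and 2 of 2 DMSO lists for both marks. CDK9 went the other way, with 4 and 6 peaks in PAX5 after CDK-TCIP1 and 1 and 1 in DMSO with ab239364, and 7 and 6 against 1 and 1 with CST2316S. The treated CDK9 lists were also longer, 9262 and 11148 peaks against 915 and 3508 with ab239364. With CST2316S they held 10005 and 9761 against 1611 and 1264, and the part of list length was not tested.

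**Figure D2:**
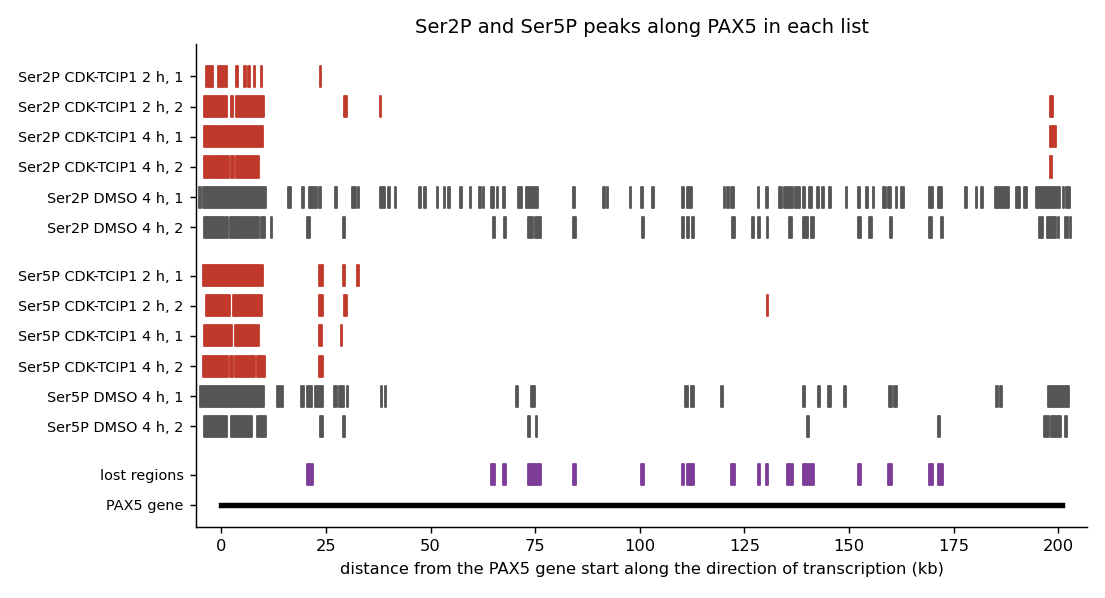
Each row shows the peaks of 1 list along PAX5 (x axis: distance from the gene start in kb), for Ser2P above and Ser5P below, with CDK-TCIP1 in red and DMSO in grey; the 19 lost regions and the gene are at the bottom. All lists hold peaks in the first 10 kb, and between 10 and 190 kb the treated lists hold 1, 2, 0 and 0 Ser2P peaks and the DMSO lists 67 and 25.

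BLNK, the adaptor that links the B-cell receptor kinase SYK to phospholipase C, lost 10 of 10 regions in 82.4 kb on chromosome 10. Ser2P covered 0, 1.84, 0 and 0 kb of BLNK in the treated lists and 15.5 and 7.04 kb in DMSO. Ser5P gave 1 peak in the gene in each treated list, at its start, and 18 and 9 peaks in DMSO. The treated lists other than CDK-TCIP1 2 h replicate 2 therefore held no Ser2P peak anywhere in BLNK, although Ser5P stayed at its start in every list.

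BACH2, a repressor that restrains plasma-cell differentiation, spans 370 kb on chromosome 6 and lost 9 of 9 regions. Ser2P covered 7.75, 11.1, 12.7 and 12.2 kb in the treated lists and 35.4 and 27.5 kb in DMSO. BACH2 also held the best-ranked lost region of all, 90280422 to 90282147, with a fold of 9.90 and 9.39 in the DMSO lists and a treated peak 2.03 kb away. ITGAL, the alpha chain of the adhesion receptor LFA-1, lost 10 of 11 regions. Its Ser2P cover was 0, 0.657, 0.789 and 0 kb in the treated lists and 13.2 and 10.2 kb in DMSO, a gap that its choice by lost regions favours. SEL1L3 lost 9 of 10, SORL1, a sorting receptor, 9 of 11, and PLEK, a protein kinase C substrate of blood cells, 8 of 9.

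Other leading genes kept part of their Ser2P. ST6GAL1, which adds the sialic acid recognised by CD22, had 12 lost, 13 partly kept and 4 kept regions. Its Ser2P cover was 4.21, 12.3, 18.6 and 11.5 kb in the treated lists against 42.3 and 40.2 kb in DMSO. NFATC1, a calcium-controlled transcription factor downstream of the B-cell receptor, had 11 lost and 3 kept of 18 regions. It was covered over 3.90, 13.7, 15.2 and 9.6 kb in the treated lists and over 48.4 and 22.7 kb in DMSO. ZHX2, a zinc-finger and homeobox repressor, had 9 lost and 2 kept of 17. DNMT1, the maintenance DNA methyltransferase, had 8 lost and 3 kept of 19, with 2.48, 9.69, 11.5 and 7.13 kb covered in the treated lists and 32.6 and 26.2 kb in DMSO. In each of these genes the treated lists covered less than either DMSO list, and the shortest list, CDK-TCIP1 2 h replicate 1, covered least. The choice of these genes by their lost Ser2P regions favours lower cover in the treated lists.

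The lost regions with the best DMSO ranks lay, after BACH2, in IRAG2, ST6GAL1 (2 regions), the thymidine kinase TK1, ZCCHC7, the proton channel HVCN1 (2 regions), the peroxisomal import receptor PEX5, DNMT1 (2 regions) and the actin-nucleating subunit ARPC1B. HVCN1 at 110656016 to 110657044 on chromosome 12 had the highest fold among them in DMSO replicate 1, 10.95, and 5.24 in replicate 2. The ZCCHC7 region at 37161430 to 37162858 on chromosome 9 had no treated Ser2P peak within 34.3 kb, while the TK1 region had one 0.381 kb away. Among the widest lost regions were those of ST6GAL1 (2890 bp), BACH2 (2851 bp), MLLT1 (2713 bp), which encodes a reader subunit of the super elongation complex, and DOT1L (2706 bp), the histone H3 lysine 79 methyltransferase.

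BCL6, the partner that CDK-TCIP1 binds, held no lost region. Peaks covered most of the gene in DMSO, and a region that reaches within 1 kb of a gene end is outside the rule. The number of BCL6 regions that could be lost is not given here, so the absence of a lost region does not show that the gene was spared. Ser2P covered 13.5, 19.3, 20.03 and 17.1 kb of its 24.1 kb in the treated lists, against 21.8 and 22.3 kb in DMSO. Ser5P covered 19.8, 15.5, 20.8 and 16.3 kb in the treated lists against 22.5 and 21.5 kb. For both marks each treated list covered less of BCL6 than either DMSO list. Ser2P and Ser5P peaks were present at both gene ends in all 6 lists of each.

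Gene lists were set against the 36.9% of all genes and 27% of all regions in both DMSO lists. Among B-cell transcription factors, 10 of the 18 genes with such a region had a lost one (BACH2, POU2F2, PAX5 and POU2AF1 with the best DMSO ranks), and 41 of their 101 regions (40.6%) were lost. Without PAX5, a subset looked at after the values were seen, the share was 22 of 82 (26.8%), near the share over all regions. Among B-cell receptor genes, 9 of 14 had a lost region (BLNK, the exchange factor RASGRP3, PLCG2 and the PI3-kinase adaptor PIK3AP1), but 33 of 122 regions (27.05%) were lost. PLCG2, the phospholipase downstream of BLNK, had 5 lost, 26 partly kept and 23 kept regions. Members of these lists have long genes, with medians of 105 kb and 99.4 kb for those with a region, against 37.5 kb over all genes, and a longer gene has more regions that can be lost.

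Of the transcription machinery, 7 of 13 elongation factor genes had a lost region, with 9 of 23 regions lost (39.1%). They included SUPT4H1, a subunit of the DSIF elongation factor, and ELL, MLLT1 and AFF4 of the super elongation complex. SUPT4H1 is short, 7.02 kb, and lost 2 of 2 regions. Its Ser2P cover was 0, 0.371, 0.598 and 0.337 kb in the treated lists against 2.21 and 2.89 kb in DMSO. Splicing factors had a lost region in 3 of 18 genes (RBM39, HNRNPC and SRSF1; 6 of 39 regions, 15.4%) and RNA 3′ end processing genes in 2 of 6 (SCAF4 and CPSF4). Ribosomal protein genes had one in 1 of 10 (RPS24), immediate-early genes in 0 of 3 and cell cycle genes in 1 of 7, the checkpoint kinase WEE1.

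NF-kB and Toll-like receptor genes had a lost region in 5 of 8 genes and 10 of 21 regions (47.6%), among them the subunits REL and RELB and the adaptors TRAF1 and TRAF2. Growth genes of the mTOR and MYC list had one in 4 of 10 (TSC2, LDHA, RPTOR and AKT1), and lymphoma chromatin modifiers in 4 of 9 (DNMT1, KDM2B, EP300 and NSD2). Migration genes had one in 5 of 13 (GNAI2, ITGAL, WIPF1 and SWAP70 named by rank), and ubiquitin ligase genes in 3 of 8 (KLHL6, FBXO11 and USP34). In the apoptosis list it was 3 of 9, namely the inhibitor BIRC3 and the pro-apoptotic genes BCL2L11 and BAD. BCL2L11, which encodes BIM, had 2 lost and 6 partly kept regions and covered 3.35, 9.80, 14.6 and 12.9 kb in the treated lists against 11.2 and 12.8 kb in DMSO, so its groups overlapped in total cover. These counts rest on few genes per list and are given without a test. They also change with the peak threshold: at −log10 q of 5, and with equal numbers of top peaks, the mTOR and MYC list had 0 and 0 members with a lost region, elongation factors 3 and 1, and B-cell transcription factors 5 and 3. Ribosomal protein genes then had 3 and 2, and splicing factors 2 and 4.

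Genes with a lost region had a median length of 44.6 kb, with quartiles of 21.3 and 101 kb. The median was 43.5 kb for the 544 genes with a kept region, 37.5 kb for all 1836 genes with a region in both DMSO lists, and 24.2 kb for all 19974 protein-coding genes. Lost and kept regions thus lay in genes of like median length. The 551 genes with lost and no kept region had a median of 38.2 kb, the 417 with kept and no lost region 36.7 kb, and the 127 with both 80.2 kb. The longest genes were DMD, which encodes dystrophin (2220 kb, 1 lost region), NCKAP5 (1003 kb, 4), CAMTA1 (984 kb, 1), ERC2 (960 kb, 1) and the recombination gene RAD51B (863 kb, 2). The shortest were EGFL8 (3.69 kb), LGALS1, which encodes galectin-1 (4.17 kb), the centromere gene CENPX (4.18 kb), TMEM200B (4.47 kb) and CALHM2 (5.58 kb). NCKAP5 had Ser2P over 0, 1.18, 0.715 and 0.813 kb in the treated lists and 9.32 and 6.01 kb in DMSO, and TMEM200B over 0, 0, 0 and 0 kb against 1.06 and 0.991 kb. LGALS1 had 0.563, 1.57, 1.97 and 1.88 kb in the treated lists and 1.34 and 2.47 kb in DMSO, so a lost region there did not separate the groups in total cover.

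Counted over regions, the share lost was higher in longer genes. It was 22.6% of regions in genes up to 20 kb, 23.7% at 20 to 50 kb, 27.8% at 50 to 100 kb, 31.2% at 100 to 200 kb and 34.7% over 200 kb, while the share kept ranged from 17.8% to 19.2%. Within the weakest group by DMSO rank, 44.6% were lost in genes up to 20 kb and 66.7% in genes over 200 kb. Within the strongest group these shares were 2.92% and 7.62%, and within the next-to-weakest group 27.5% and 32.7%, with 35.8% at 50 to 100 kb. The class over 200 kb held 150 lost of 432 regions, among them all 19 of PAX5 and all 9 of BACH2, and its share without these genes was not computed. Regions of 1 gene are not independent of each other, and no test was made.

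**Figure D3:**
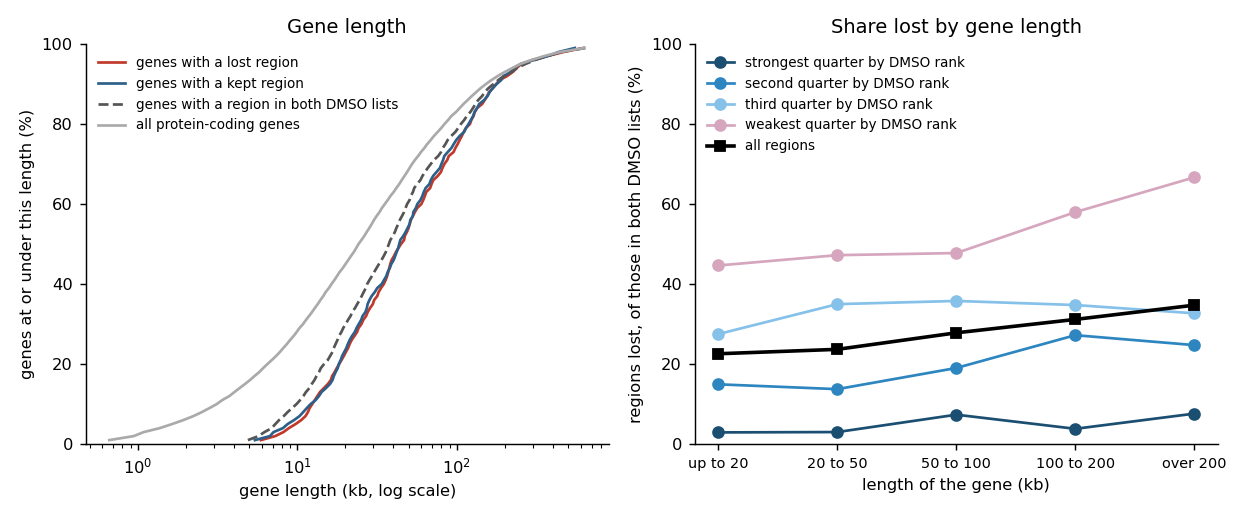
Left, the percentage of genes at or under each length (log axis in kb) for genes with a lost region, a kept region, any region in both DMSO lists, and all protein-coding genes. Right, the percentage of regions lost by length of the gene, over all regions (black) and in 4 groups by DMSO rank; the lost and kept curves nearly coincide (medians 44.6 and 43.5 kb), and the black line lies at 22.6% for the shortest and 34.7% for the longest genes.

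The rule did not use the place of a region within the gene beyond the 1 kb margin, and lost regions lay further downstream than kept ones. Where the strand was known and 1 gene held the region, the centre of the 844 lost regions lay at a median of 70.2% of the gene from its start. That of 613 kept regions lay at 48.3%, and that of 1733 partly kept regions at 58.2%. In the last 20% of the gene were 34.8% of lost and 16.6% of kept regions, and in the first 20% were 7.58% of lost and 21.5% of kept regions. The median distance from the gene start was 39.1 kb for lost and 18.96 kb for kept regions. Since position was read from the same Ser2P regions that defined the classes, it is given without a test.

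The order was the same in each group by DMSO rank and in each class of gene length. From the strongest to the weakest group the lost median was 58.9, 69.4, 71.7 and 70.0% of the gene, against kept medians of 50.2, 47.6, 38.9 and 20.8%, the last over 17 regions. In genes up to 20 kb it was 65.0% for lost and 49.8% for kept regions, and in genes over 200 kb 74.2% and 44.9%. The same rule applied to the Ser5P lists gave 324 lost of 2323 regions in both DMSO lists (13.9%), while 68 of all 12951 Ser5P gene-body regions (0.525%) were in all 4 treated and neither DMSO list. With a known strand, 262 of those lay at a median of 65.5% of the gene, against 43.8% for 971 kept Ser5P regions.

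**Figure D4:**
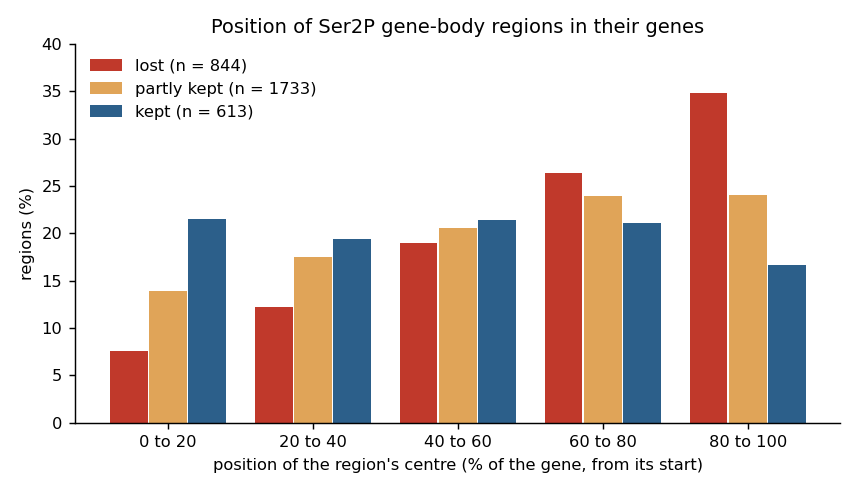
Bars give the percentage of lost, partly kept and kept Ser2P gene-body regions (y axis) in each 20% of the gene from its start (x axis). Lost regions increase along the gene and reach 34.8% in the last bin, where kept regions are at 16.6%.

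Ser2P at the ends of these genes went the same way. Of the 551 genes with a lost region and a known strand, 18.0 and 35.8% at 2 h and 38.7 and 27.2% at 4 h of CDK-TCIP1 had a Ser2P peak within 1 kb of the gene end, against 65.9 and 53.9% in DMSO. Among the 457 genes with a kept region and a strand it was 24.3, 39.8, 44.6 and 35.2% in the treated lists and 56.2 and 49.0% in DMSO, so end peaks were fewer there as well. At the starts of genes with a lost region the shares were 39.7, 71.3, 69.5 and 67.2% in the treated lists and 71.9 and 60.3% in DMSO. The groups did not overlap at the gene end and overlapped at the gene start. Over all 15812 genes with a strand, Ser2P end peaks were listed for 5.09, 10.9, 11.1 and 8.47% in the treated lists and 17.6 and 12.7% in DMSO, so the groups did not overlap there either. Ser5P at the start of genes with a lost region was listed for 70.2, 72.6, 59.7 and 74.2% in the treated lists and for 67.5 and 59.9% in DMSO. In 280 of the 551 genes (50.8%) a Ser5P start peak was in all 6 lists, and in 119 genes it was in none. Ser5P at the gene end was listed for 27.8, 23.4, 17.4 and 22.9% of these genes in the treated lists and 48.3 and 30.9% in DMSO, without overlap. For genes with a kept region these Ser5P end shares were 32.2, 27.6, 24.7 and 29.3% in the treated lists and 43.98 and 28.0% in DMSO, and for all genes with a strand 8.32, 7.29, 5.79 and 7.53% against 11.1 and 7.46%, so the groups overlapped in both. Ser5P start peaks of all genes with a strand were listed for 38.6, 41.1, 31.1 and 41.6% in the treated lists and 34.5 and 29.6% in DMSO.

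Ser5P, a readout that did not choose the members, was also listed at fewer of the lost regions after treatment. Whether the Ser5P and Ser2P precipitations of a replicate number used the same chromatin is not stated in the labels, so the marks may share their sample. A Ser5P peak overlapped 10.6 and 6.35% of the lost regions at 2 h and 5.42 and 7.38% at 4 h of CDK-TCIP1, against 38.7 and 19.3% in DMSO. All 4 treated lists were below both DMSO lists. The Ser5P lists held 15099, 13290, 10816 and 14237 peaks treated and 17784 and 11782 in DMSO, and the part of list length was not tested. Over both times the share averaged 7.42% ± 2.23 with CDK-TCIP1 (SD, n = 4) and 29.0% ± 13.7 in DMSO (SD, n = 2), a difference of −21.6 points. The two-sided exact permutation test over lists gave p = 0.0667, the smallest it can give with 4 against 2 lists, and 0.545 after Benjamini-Hochberg adjustment over 18 tests. At 2 h alone the difference was −20.6 points and at 4 h −22.6 points, each at the smallest exact permutation p of 0.333. The size rests on the controls: it was −11.9 points without DMSO replicate 1 and −31.3 without DMSO replicate 2, and −8.75 when Ser5P peaks needed a −log10 q of at least 5.

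Kept regions did not show this split between groups, but most of them held Ser5P in every list, which leaves little room for one. A Ser5P peak was listed there at 92.8, 88.5, 81.0 and 89.7% in the treated lists and 96.9 and 87.2% in DMSO. At partly kept regions it was 50.4, 40.7, 34.3 and 47.3% in the treated lists and 69.4 and 46.7% in DMSO. The groups overlapped there, with DMSO replicate 1 above every treated list. The share at lost minus the share at kept regions was −80.6 points with CDK-TCIP1 and −63.0 points in DMSO, a difference of −17.6 points (exact permutation p = 0.0667, adjusted 0.545), which was −4.37 points (exact permutation p = 0.533) at the stricter Ser5P threshold. In the group of strongest DMSO rank, 15.6, 6.67, 11.1 and 8.89% of 45 lost regions had Ser5P in the treated lists, against 77.8 and 55.6% in DMSO. In the weakest group of 510 it was 8.24, 5.88, 4.90 and 6.08% against 28.8 and 11.6%, so the treated lists were lower in the strong and in the weak regions. At the 359 lost regions with no treated Ser2P peak within 5 kb, a subset chosen after the data were seen, it was 4.74, 4.18, 2.51 and 4.74% against 30.6 and 13.9%.

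**Figure D5:**
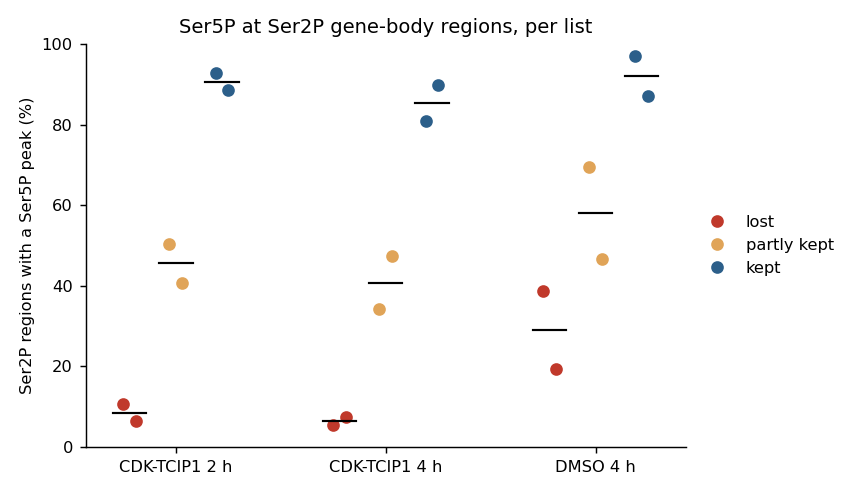
Points give, for each Ser5P list, the percentage of lost, partly kept and kept Ser2P regions that hold a Ser5P peak (y axis) by condition (x axis); black lines are means of 2 lists. At lost regions the 4 CDK-TCIP1 lists lie between 5.42 and 10.6% and the DMSO lists at 38.7 and 19.3%, whereas at kept regions the groups overlap.

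Of the lost regions, 143 had Ser5P in both DMSO lists, and 73 of these (51.0%) had it in no treated list. Of 642 kept regions with Ser5P in both DMSO lists, 13 (2.02%) had it in no treated list. The 2 kinds of loss coincided in part only. Of the regions lost by the Ser5P rule, 61 (18.8%) overlapped a Ser2P-lost region, and of the Ser2P-lost regions 70 (6.54%) overlapped a Ser5P-lost one. Genes with both numbered 141. No Ser5P peak was listed in any list at 537 lost regions.

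Ser5P was in every list at 13 lost regions. They lay in CAMTA1, ADAM17, a membrane-shedding protease, WIPF1, an actin regulator, ERC2, C3orf52 with GCSAM, MME, which encodes the germinal-centre marker CD10, PRAG1, TG with SLA, ZCCHC7 (2 regions), IRAG2, CACNA1A, a calcium channel subunit, and LOC124905135. A treated Ser2P peak lay 0.112 to 0.74 kb from these regions, except at CAMTA1 (2.62 kb), ERC2 (3.43 kb), PRAG1 (42.4 kb) and CACNA1A (96.4 kb). CDK9 was in both treated lists of each SUDHL5 antibody at 9 of the 13, those of ADAM17, ERC2, C3orf52 with GCSAM, MME, PRAG1, TG with SLA, ZCCHC7 (2 regions) and CACNA1A. Single treated SUDHL5 CDK9 lists held 3.73 to 8.40% of all lost regions, and the share held by both lists of each antibody was not computed. CDK9 was listed in DMSO at some of the 9 as well. The ZCCHC7 regions were 37292828 to 37293339 and 37295062 to 37295950 on chromosome 9. At both, and at C3orf52 with GCSAM, CST2316S gave a peak in 2 of 2 DMSO lists and ab239364 in 0 of 2. At ERC2 each antibody gave one in 2 of 2 DMSO lists. ADAM17 had one in 1 of 2 CST2316S lists, PRAG1 in 1 of 2 ab239364 lists, and CACNA1A in 1 of 2 lists of each antibody. MME and TG with SLA had none in DMSO. No lost region held a Pol II peak in all 9 lists.

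Total polymerase was rarely called at lost regions, at 0, 3 and 1 regions at 2 h, 0, 0 and 0 regions at 4 h, and 0, 6 and 0 regions in DMSO. The Pol II lists are short, 138 to 4000 peaks, and at kept regions they held 12.7, 33.9 and 21.5% at 2 h, 1.21, 29.4 and 15.7% at 4 h, and 7.83, 30.4 and 18.9% in DMSO. With 6 against 3 lists the difference at lost regions was −0.12 points (exact permutation p = 0.571, adjusted 0.84). A change of total polymerase at lost regions was not detectable with these lists.

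CDK9 was called at more of the lost regions after CDK-TCIP1 in SUDHL5. With ab239364 it was at 3.73 and 6.91% with CDK-TCIP1 and at 0.280 and 0.934% in DMSO, and with CST2316S at 8.12 and 8.40% with CDK-TCIP1 and 1.68 and 1.68% in DMSO. The groups did not overlap with either antibody, and 2 against 2 lists allow an exact permutation p of 0.333 at the least (adjusted 0.545). In KARPAS422, where the regions were not called, CST2316S gave 7.10 and 5.14% with CDK-TCIP1 and 4.30 and 5.79% in DMSO, and the groups overlapped (exact permutation p = 0.667, adjusted 0.84). The effect with this antibody was 5.51 points larger in SUDHL5 than in KARPAS422, a difference that the exact permutation test within lines did not separate from the spread (p = 0.278). Treated SUDHL5 CDK9 lists were longer, 9262 and 11148 peaks against 915 and 3508 with ab239364 and 10005 and 9761 against 1611 and 1264 with CST2316S. Kept regions held CDK9 more often, 50.3 and 53.2% with CDK-TCIP1 against 6.21 and 26.2% in DMSO with ab239364. The share at lost minus that at kept regions differed between CDK-TCIP1 and DMSO by −30.8 points with ab239364 and −22.0 points with CST2316S (exact permutation p = 0.333 each). The part of list length in these shares was not tested.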

How the data were processed

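Peak lists of 33 ChIP-seq samples were used, and the 10 input samples have no list of their own here. The submitters' processing notes name MACS2, Bowtie2, Trim Galore, FastQC, Picard, SAMtools, deepTools and bedtools without versions, and the builds hg38 and dm6. For every peak the authors deposited a fold enrichment (a ratio to local background within that list), the authors' −log10 p and −log10 q, and the authors' score. These depend on depth, so here they order the peaks of a list or set a stricter threshold. Depth per sample is unknown, and 25 peaks on unplaced contigs were left out.

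Peaks were merged and classed with Python 3.11.15, numpy 2.4.6 and pandas 2.3.3. Gene spans came from RefSeq GRCh38.p14, and strand from its promoter table for 15812 genes. Shares of regions were tested by exact permutation of lists (two-sided), with Benjamini-Hochberg adjustment over 18 tests. The labels record Drosophila chromatin added to CDK9 samples, and no value scaled to it was used. Classing was tested on simulated data.

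The members and gene lists were chosen with earlier results of these data known. Named genes were those of the 12 best-ranked and 5 widest lost regions, the 8 genes with the most lost regions (ties at 9 by summed length; SORL1 and PLEK were added after values were seen), the 5 longest and 5 shortest, regions with Ser5P or Pol II in every list, up to 4 list members by rank, and BCL6. Some named items and 2 gene lists are not reported here. Alternatives were a stricter q, equal numbers of top peaks, other merging, cover, margins and summits, and leaving out lists.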

Additional observations from a re-analysis of the deposited data

How the results depend on the processing

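How many regions count as lost depends on the lists and thresholds. With −log10 q of at least 5 there were 353 lost regions in 261 genes, and with the best 6519 peaks of every list 192 in 156 genes, of which 170 and 94 genes were among the 678. The list members with a lost region then numbered 37 and 25, against 62. Leaving out 1 Ser2P list gave 1103 to 9529 regions, 693 to 3751 genes and median gene lengths of 36.5 to 43.8 kb. The counts moved by over 1.5 times without DMSO replicate 1 (3544 regions, 1753 genes) and without DMSO replicate 2 (9529 regions, 3751 genes), since a peak in only 1 DMSO list was then required. Without the longest and the shortest list together, added after the data were seen, there were 3591.

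The median gene length was 57.5 kb when peaks within 1 kb were merged and 50.0 kb with a 2 kb margin, against 44.6 kb. Genes with a kept region moved alike, to 57.5 and 49.1 kb. At the stricter q the median was 40.2 kb for lost and 47.9 kb for kept regions, and with equal numbers of peaks 41.7 and 44.7 kb. The median position of lost regions was 66.6% of the gene at the stricter q and 66.5% with equal numbers of peaks (kept regions 47.0 and 43.7%), and 63.9 to 70.1% when 1 list was left out. The position alternatives were chosen after the data were seen.

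The Ser5P difference at lost regions kept its sign under each alternative run. Replicate numbers do not pair the lists by any label, and same-numbered lists deviated together by correlations of −0.14 to 0.16. With a replicate block the Ser5P difference was −21.6 points. No blocked test passed 0.05, but with so few replicate numbers none could, so these tests decide nothing. The same holds with crossed numbers for ab239364, added after the data were seen. For Pol II, leaving out 1 list turned the sign of differences that were never past the threshold: at lost regions the range was −0.156 to 0.124 points at 2 h and −0.218 to 0.0622 over both times, and for lost minus kept regions −9.19 to 1.82 at 2 h, −3.70 to 10.41 at 4 h and −5.63 to 5.36 over both times. The cause was not tested. Unknown depth limits every statement on absence: no listed peak does not show that polymerase was absent.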
